A study of Homo sapiens with 10 samples.

Results

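The zinc finger genes of chromosome 19 were examined for ChIP-seq peaks of ZMYND8, a chromatin reader that recognises modified histone tails. Members were the protein-coding genes of chromosome 19 in the GENCODE annotation of the hg19 (GRCh37) genome that are named ZNF followed by a number, and 240 of 20162 protein-coding genes met this rule. They were set against the 1240 other protein-coding genes of chromosome 19 and against the 236 genes with a ZNF number name on other chromosomes. The name is no guarantee of the protein, so the annotated reading frames were searched for the C2H2 pattern, in which 2 cysteines and 2 histidines hold a zinc ion. All 239 members whose frame could be read held at least 1 such finger, with a median of 12 and a range from 1 to 36. The annotated frame of ZNF274 is interrupted on this genome build and was not read for fingers. A KRAB-like box, found here as the residues L, Y, any 2, V, M, any 1 and E, was present in 184 members (76.7%). This short pattern misses diverged KRAB boxes, so the other 56 members are called members without the pattern.

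KRAB zinc finger proteins bind DNA through tandem C2H2 fingers and, through the KRAB box, the corepressor TRIM28, which brings the histone H3 lysine 9 methyltransferase SETDB1 and heterochromatin proteins to the site. Many of them target retrotransposons. Their genes arose by tandem duplication, lie in clusters along chromosome 19, and in several cell lines carry H3 lysine 9 trimethylation over the 3′ exon that encodes the fingers, while their starts are often CpG rich and accessible.

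The study used Flp-In T-REx HEK293 cells, an established human embryonic kidney line with a site for inducible transgenes, and sequenced DNA from formaldehyde-crosslinked chromatin digested with micrococcal nuclease. Of its 10 samples, 2 were replicates of a ChIP with an antibody to ZMYND8 and 2 were replicates of an anti-FLAG ChIP from cells in which 3xFLAG-ZMYND8 was induced with 10 nM doxycycline. The labels describe the cells for the ZMYND8 antibody as stably expressing 3xFLAG-ZMYND8 or an N228F mutant without saying which, so that ChIP may also have recovered transgene protein. The samples of H3K14ac, H3K27ac and input DNA were not analysed here. One deposited peak list per target gives positions and no heights, with 15086 ZMYND8 peaks and 63690 FLAG-ZMYND8 peaks, of which 708 and 2939 lie on chromosome 19. Each gene therefore has a single value per target with no spread between replicates, the sequencing depth is unknown, and a missing peak means only that no site in the window entered the list. The antibody, the expression of the transgene and the length of the list all differ between the 2 targets and cannot be told apart.

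The starts of 4 members show what the peaks cover. They are the members of each kind described by the widest peaks whose peak lay nearest the start, with ZNF91 for the starts without a peak. Each sequence is the GRCh37 reference, 5′ to 3′ on the strand of the gene, from 250 bp before the annotated start to 20 bp into the gene, and capitals mark CpG dinucleotides. ZNF428 (chr19:44123762-44124031, minus strand) has both peaks, ZNF302 (chr19:35168294-35168563, plus strand) one of ZMYND8 alone, ZNF121 (chr19:9695161-9695430, minus strand) one of FLAG-ZMYND8 alone, and ZNF91 (chr19:23578254-23578523, minus strand) neither.
ZNF428: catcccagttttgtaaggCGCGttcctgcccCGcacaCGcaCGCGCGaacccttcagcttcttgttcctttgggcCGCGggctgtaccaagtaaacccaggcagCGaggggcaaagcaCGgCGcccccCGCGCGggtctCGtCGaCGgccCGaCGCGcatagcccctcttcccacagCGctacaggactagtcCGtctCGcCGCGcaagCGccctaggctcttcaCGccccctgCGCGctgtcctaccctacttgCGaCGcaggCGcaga
ZNF302: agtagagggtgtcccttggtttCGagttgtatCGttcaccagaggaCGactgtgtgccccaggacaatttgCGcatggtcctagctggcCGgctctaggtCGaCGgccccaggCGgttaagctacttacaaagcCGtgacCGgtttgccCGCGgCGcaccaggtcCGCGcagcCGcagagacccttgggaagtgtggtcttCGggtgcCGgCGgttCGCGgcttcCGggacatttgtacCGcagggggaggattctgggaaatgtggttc
ZNF121: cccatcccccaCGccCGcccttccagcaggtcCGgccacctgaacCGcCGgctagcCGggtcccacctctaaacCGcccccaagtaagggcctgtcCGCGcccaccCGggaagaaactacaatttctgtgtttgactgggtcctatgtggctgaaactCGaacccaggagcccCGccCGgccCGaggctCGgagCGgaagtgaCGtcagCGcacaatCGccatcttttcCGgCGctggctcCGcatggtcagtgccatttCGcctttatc
ZNF91: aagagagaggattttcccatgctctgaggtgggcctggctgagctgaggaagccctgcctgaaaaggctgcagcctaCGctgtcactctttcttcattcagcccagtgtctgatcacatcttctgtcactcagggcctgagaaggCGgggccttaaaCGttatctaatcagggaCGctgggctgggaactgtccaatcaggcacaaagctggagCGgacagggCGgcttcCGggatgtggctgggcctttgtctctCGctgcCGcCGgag
These 270 bp held 33 CpG at ZNF428, 23 each at ZNF302 and ZNF121, and 10 at ZNF91.

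The question asked at the starts was whether ZMYND8 peaks occur at zinc finger genes as often as at their neighbours. A peak was counted at a start when its midpoint lay within 3 kb. ZMYND8 peaks were found at the starts of 71 of the 240 members (29.6%, 95% Wilson interval 24.2 to 35.6%), against 341 of 1240 other genes of chromosome 19 (27.5%, 25.1 to 30.1%). The difference was 2.08 percentage points, with an interval from -3.90 to 8.61, so the classes could not be separated at this number of genes. Over all protein-coding genes the share was 34.0%, and the ZNF genes of other chromosomes had a higher share, 105 of 236 (44.5%). All intervals here cover counting error only, and neighbouring genes that share a start or a duplication are not independent.

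The FLAG-ZMYND8 list gave another order. It placed a peak at the starts of 75 members (31.2%, 25.7 to 37.4%), 702 other genes of chromosome 19 (56.6%, 53.8 to 59.3%) and 152 ZNF genes elsewhere (64.4%), beside 57.9% of all protein-coding genes. The members' share was 25.4 points below that of the other chromosome 19 genes (difference -25.4, interval -31.5 to -18.6). The 2 lists thus marked nearly equal numbers of members, although the FLAG-ZMYND8 list is the longer one. At genes of the tissue-restricted families of the chromosome, such as kallikreins and pregnancy-specific glycoproteins, the counts were 2 and 11 of 101 genes, and at its ribosomal protein genes they were 6 and 11 of 12. The 28 chromosome 19 genes with other zinc finger names, such as ZSCAN and ZFP, had 9 ZMYND8 and 10 FLAG-ZMYND8 starts.

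With the window narrowed to 1 kb, 67 members (27.9%) kept a ZMYND8 peak, against 259 other chromosome 19 genes (20.9%) and 28.4% of all protein-coding genes, a difference of 7.03 points with an interval from 1.24 to 13.4. FLAG-ZMYND8 peaks remained at 68 members (28.3%) and at 527 other genes (42.5%), with 49.1% over all genes and a difference of -14.2 points. ZNF genes of other chromosomes had 1 kb shares of 37.7% for ZMYND8 and 58.5% for FLAG-ZMYND8. The members' differences from them were -9.80 points (interval -18.0 to -1.36) and -30.1 points (interval -38.2 to -21.4). The choice of window moved the other genes of chromosome 19 more than the members. Of the starts marked by ZMYND8 at 3 kb, 5.63% of the members' and 24.0% of the other genes' had it only beyond 1 kb. For FLAG-ZMYND8 these shares were 9.33% and 24.9%. At ZNF genes of other chromosomes they were 15.2% for ZMYND8 and 9.21% for FLAG-ZMYND8, the latter close to the members' value.

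**Figure D1:**
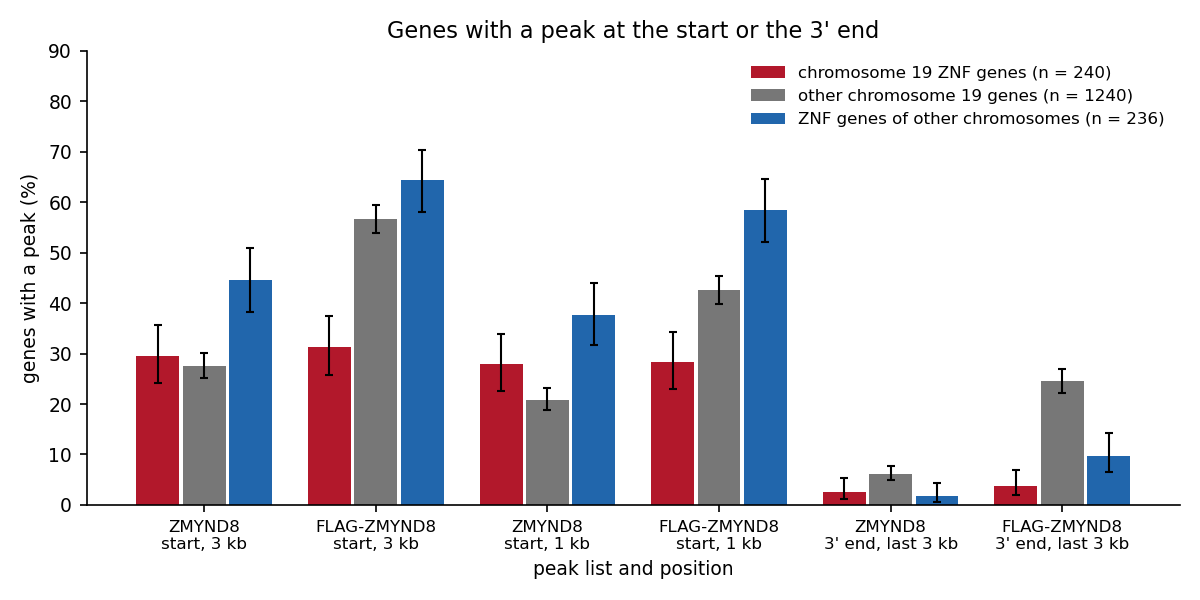
Share of genes with a peak (y axis, percent) for each list and position (x axis) in the 3 classes of genes, with bars for the share and lines for the 95% Wilson interval. The FLAG-ZMYND8 bar of the chromosome 19 ZNF genes is below both other classes at the start (31.2% within 3 kb) and at the 3′ end (3.75%), while their ZMYND8 bar at 3 kb overlaps that of the other chromosome 19 genes.

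The peaks at the members' starts sat close to the start and mostly inside the gene. The 73 distinct ZMYND8 peaks had a median distance of 338 bp, 65 (89.0%) had their midpoint within 1 kb, and 52 of those 65 (80%) were downstream of the start. At other genes of the chromosome the median was 432 bp, 71.6% of peaks were within 1 kb and 68.7% of those were downstream. ZNF genes of other chromosomes had nearly the members' median, 339.5 bp, with 79.1% within 1 kb and 70.1% of those downstream. By annotation at the midpoint, 34 of the 73 peaks were in an intron, 24 in an untranslated exon, 14 upstream and 1 in a coding exon. The 96 FLAG-ZMYND8 peaks were likewise near, with 75 (78.1%) within 1 kb and 74.7% of these downstream, against 55.7% and 55.5% at the other genes. At ZNF genes of other chromosomes these shares were 72.1% and 63.3%. In 250 bp bins, the densest for ZMYND8 ran from 250 to 500 bp into the member genes, with 9.17 peaks per 100 genes, and at the other genes from 0 to 250 bp, with 6.05. For FLAG-ZMYND8 the first 250 bp of the gene held 9.58 peaks per 100 members and 10.0 per 100 other genes, and the classes lay farther apart around it. From 500 to 250 bp upstream the values were 5.00 and 9.44.

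**Figure D2:**
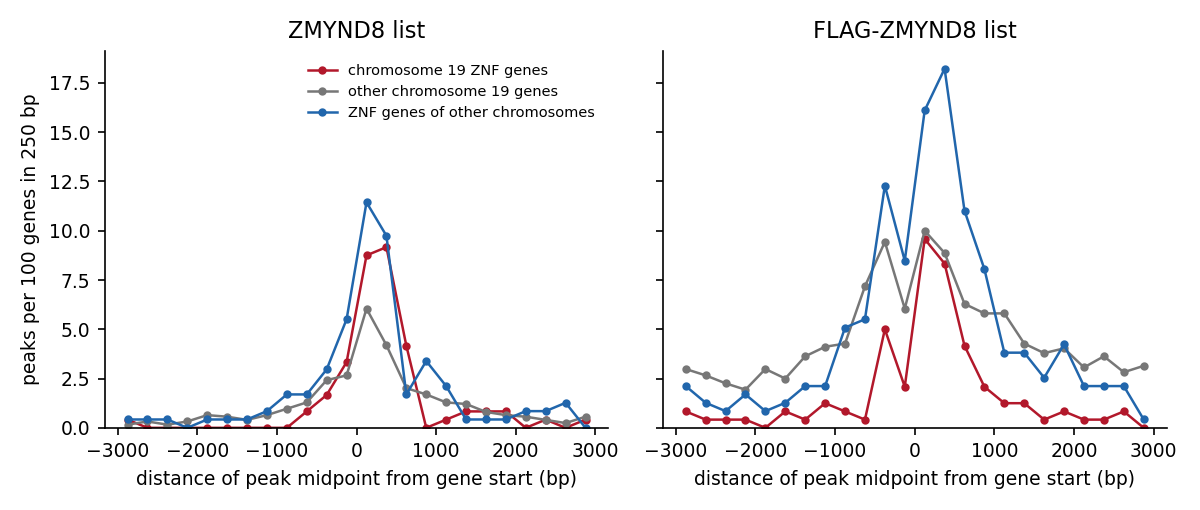
Peaks per 100 genes (y axis) in 250 bp bins of distance from the gene start (x axis, negative values upstream) for the ZMYND8 list (left) and the FLAG-ZMYND8 list (right), 1 line per class of genes. For FLAG-ZMYND8 the members meet the other chromosome 19 genes just inside the gene (9.58 against 10.0 peaks per 100 genes) and lie below them on both flanks.

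The 2 lists marked partly different members. A peak of both was present at 28 starts, of ZMYND8 without FLAG-ZMYND8 at 43, of FLAG-ZMYND8 without ZMYND8 at 47, and of neither at 122. The 47 were 62.7% of the members' FLAG-ZMYND8 starts, near the 59.7% at other chromosome 19 genes. At ZNF genes of other chromosomes the share of FLAG-ZMYND8 starts without ZMYND8 was 44.7%. Of the 71 members with a ZMYND8 peak, 43 lacked a FLAG-ZMYND8 peak (60.6%, 48.9 to 71.1%), whereas 58 of 341 other genes of the chromosome did (17.0%, 13.4 to 21.4%), a difference of 43.6 points with an interval from 31.1 to 54.7. Among all protein-coding genes with a ZMYND8 peak the share was 13.9%, and among the ZNF genes of other chromosomes it was 21 of 105 (20%). Of the 9 ZMYND8 starts among other zinc finger names of chromosome 19, such as ZSCAN and ZFP, 5 lacked FLAG-ZMYND8 (55.6%, 26.7 to 81.1%), so the share was not shown to be particular to the ZNF number names. With or without a ZMYND8 peak, 68.8% of all members and 43.4% of the other chromosome 19 genes had no FLAG-ZMYND8 peak. A FLAG-ZMYND8 peak was found at 39.4% of members with a ZMYND8 peak and 27.8% of those without, and at 83.0% and 46.6% of the other genes.

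The overlap of the peaks themselves was counted as well. Of the 73 ZMYND8 peaks at their starts, 15 (20.5%) overlapped a FLAG-ZMYND8 peak by at least 1 bp, against 129 of 303 (42.6%) at other chromosome 19 genes and 62 of 110 (56.4%) at ZNF genes elsewhere. The differences were -22.0 points (interval -31.5 to -10.1) and -35.8 points (interval -47.6 to -21.7). For the 43 members without a FLAG-ZMYND8 peak the nearest one was not just past the window: its midpoint lay 54738 bp away in the median (range 3814 to 405792 bp), and in 4 of the 43 it lay within 10 kb. For the 58 other genes the median was 19996 bp, with 22 within 10 kb.

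Width is the only measure of size the lists give, and the classes differed at both widths. ZMYND8 peaks of the minimum width, 151 bp, were the widest at 34 of the 71 members, and 23 of those 34 (67.6%) lacked FLAG-ZMYND8, as did 20 of the 37 with a wider peak (54.1%). At other genes of the chromosome the shares were 24.2% and 10.6%. Of the ZMYND8 starts with the KRAB pattern, 34 of 50 (68%, 54.2 to 79.2%) lacked FLAG-ZMYND8, and of those without it 9 of 21 (42.9%, 24.5 to 63.5%). These shares lie below those of all members with and without the pattern, 74.5% and 50%, and their intervals overlap. ZNF genes on other chromosomes with the KRAB pattern gave 11 of 28 (39.3%) and those without 10 of 77. Among all ZNF genes elsewhere with and without the pattern, 50.7% and 28.8% lacked FLAG-ZMYND8. The pattern was present in 30.9% of ZNF genes elsewhere and 76.7% of members, so whole-class comparisons mix the kinds in unlike proportions. Within each kind, FLAG-ZMYND8 starts made up 25.5% of members with the pattern and 50% without, against 49.3% and 71.2% of ZNF genes elsewhere.

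**Figure D3:**
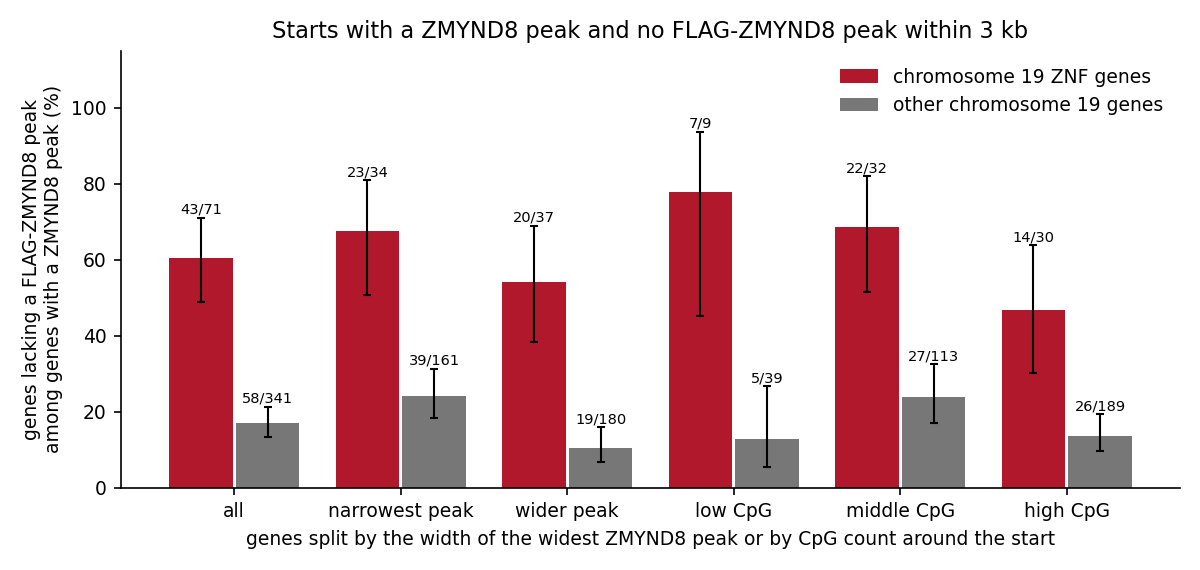
Share of genes without a FLAG-ZMYND8 peak (y axis, percent) among genes whose start has a ZMYND8 peak (3 kb on either side), for chromosome 19 ZNF genes and other chromosome 19 genes, in all and split by ZMYND8 peak width or by CpG count within 500 bp of the start (x axis). Numbers are genes lacking the peak over genes with a ZMYND8 peak and lines are 95% Wilson intervals; the member bar is the higher one in each of the splits, from 46.7% at high CpG to 77.8% at low CpG.

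Among the starts with both peaks, the widest ZMYND8 peak was at ZNF428 (chr19:44123054-44124242, 1189 bp), which the FLAG-ZMYND8 list covered with a peak of 1129 bp (chr19:44122991-44124119). ZNF544 had peaks of 791 and 1124 bp, and ZNF628 peaks of 544 and 580 bp, upstream of the gene. In these genes both lists gave wide peaks at nearly the same place. ZNF567 was unlike them, with a ZMYND8 peak of 854 bp centred 337 bp upstream of the start and a FLAG-ZMYND8 peak of the minimum width, 167 bp, centred 221 bp downstream. ZNF529 and ZNF382 lie on opposite strands with starts 459 bp apart, the genes overlapping there, and a single pair of peaks, 336 bp for ZMYND8 and 835 bp for FLAG-ZMYND8, counts for both. ZNF497, ZNF446, ZNF180 and ZNF850 complete the 10 members with the widest ZMYND8 peaks of this kind, with widths from 283 to 487 bp. At ZNF497 the FLAG-ZMYND8 peak, at 1394 bp, was the farther one, and at ZNF446 both lay over 2 kb inside the gene.

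The starts with ZMYND8 and no FLAG-ZMYND8 peak included wide peaks too. ZNF331, an imprinted KRAB gene, had a peak of 1155 bp (chr19:54023733-54024887) centred 1529 bp into the annotated gene. ZNF606 (chr19:58513580-58514707, 1128 bp), ZNF264 (chr19:57702871-57703844, 974 bp), ZNF302 (chr19:35168061-35168989, 929 bp) and ZNF667 (chr19:56989020-56989724, 705 bp) followed. The ZNF302 peak was centred 19 bp from the start and spans the whole promoter sequence printed above. ZNF43 and ZNF85, both in the pericentromeric cluster, had ZMYND8 peaks of the minimum width 227 and 191 bp into the gene and no FLAG-ZMYND8 peak.

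The reverse kind was led by ZNF526, with a FLAG-ZMYND8 peak of 627 bp centred 1686 bp upstream, and ZNF536, a repressor of neuronal differentiation, with 577 bp centred 1783 bp inside the gene. Both of these peaks lay away from the start, but each gene also had a narrower FLAG-ZMYND8 peak nearer to it, at 279 and 562 bp. The widest peaks of ZNF121 (chr19:9694949-9695457, 509 bp), ZNF552 (430 bp) and ZNF791 (429 bp) lay at 23, 270 and 299 bp. ZNF274, whose protein binds the 3′ exons of other zinc finger genes and brings TRIM28 and SETDB1 there, had a FLAG-ZMYND8 peak of 167 bp at 580 bp and no ZMYND8 peak. So did ZNF93, whose protein represses LINE-1 elements, at 190 bp. ZNF91, which represses SVA elements, had no peak of either list within 3 kb of the start, nor did ZNF146, which encodes fingers alone, or ZNF177 and ZNF671, whose promoters are methylated in several tumours. Of the genes of the corepressor complex, TRIM28, on the same chromosome, had 1 ZMYND8 peak of 151 bp and no FLAG-ZMYND8 peak, and SETDB1 had none. ZNF592 and ZNF687, partners of ZMYND8 in a chromatin complex and not members, each had 1 ZMYND8 and 2 FLAG-ZMYND8 peaks.

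Along the chromosome, members were compared with their neighbours in windows of 5 Mb. Of the 12 windows, 6 held at least 10 genes of each class. Within 3 kb, the FLAG-ZMYND8 share at starts was lower for the members in 6 of these 6, with differences from -34.6 to -1.79 points. Within 1 kb it was lower in 4 and higher in 2, from -23.6 to 5.28 points. The members were higher at 1 kb in window 8 (34.5% against 33.1%) and window 12 (35.1% against 29.8%), which hold 29 and 57 of them. The ZMYND8 share within 3 kb was higher for members in 4 and lower in 2, from -20.1 to 27.5 points. The extreme values came from window 3 (10 to 15 Mb), with 4 of 26 members and 50 of 141 other genes, and window 8 (35 to 40 Mb), with 15 of 29 members (51.7%) and 30 of 124 other genes (24.2%).

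The windows with the most members were not alike. Window 12, at the end of the long arm, held 57 members, 24 with ZMYND8, 22 with FLAG-ZMYND8 and 9 with both. Window 5 (20 to 25 Mb), next to the centromere, held 33 members and 3 other genes. It had 2 ZMYND8 starts, ZNF85 and ZNF43, 4 FLAG-ZMYND8 starts, ZNF93, ZNF90, ZNF708 and ZNF675, and none with both. Window 11 (50 to 55 Mb) held 40 members with 9, 6 and 1 of the 3 kinds. With 3 other genes to compare with, the cluster and its position in window 5 cannot be told apart.

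**Figure D4:**
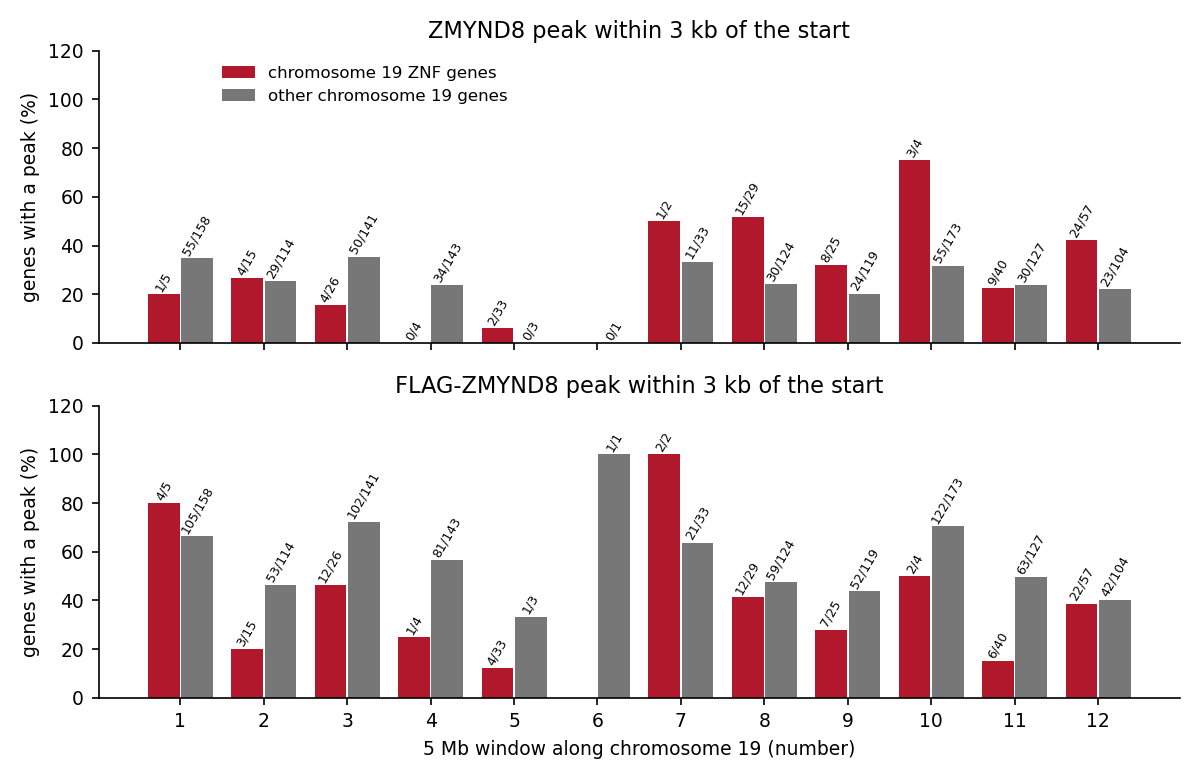
Share of genes with a peak within 3 kb of the start (y axis, percent) in each 5 Mb window, numbered along chromosome 19 (x axis), for ZMYND8 (top) and FLAG-ZMYND8 (bottom), with genes having a peak over all genes above each bar. The members' ZMYND8 share is highest among well filled windows in window 8 (15 of 29) and lowest in window 5 (2 of 33), and their FLAG-ZMYND8 bar at 3 kb is below the neighbours' in each window with at least 10 genes of both classes.

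Within runs of at least 5 members with no other protein-coding start between them, of which there were 18, the kinds of start were unevenly spread. In the run from ZNF625 to ZNF443, 6 of 7 genes had a FLAG-ZMYND8 peak and 0 a ZMYND8 peak. In the run from ZNF83 to ZNF888, 3 of 7 were marked by ZMYND8 and 0 by FLAG-ZMYND8. The run from ZNF566 to ZNF790 was marked by both lists, with 5 and 6 of 9 genes and 5 shared. The 2 longest runs, ZNF101 to ZNF493 with 18 genes and ZNF429 to ZNF724 with 14, had 1 and 1 ZMYND8 starts and 4 and 0 FLAG-ZMYND8 starts. These runs were picked out after their values were seen.

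At the 3′ end the question was whether peaks fall where the finger exons lie. A peak midpoint in the last 3 kb of the gene was found at 6 members for ZMYND8 (2.50%, 1.15 to 5.35%) and 77 other genes of chromosome 19 (6.21%), with 3.91% over all protein-coding genes, a difference of -3.71 points (interval -5.71 to -0.616). This ZMYND8 difference depended on the region: it was -1.99 in the last 1 kb (-3.22 to 0.303), -2.14 at ends over 3 kb from every start (-4.00 to 0.841) and 0.255 in the last exon (-1.57 to 3.33), intervals that include 0. For FLAG-ZMYND8 it was found at 9 members (3.75%, 1.99 to 6.97%), 304 other genes (24.5%) and 14.1% of all genes, a difference of -20.8 points (interval -23.8 to -16.8). Members were lower in 6 of the 6 windows for FLAG-ZMYND8. Of the members with the KRAB pattern, 1 of 184 had a ZMYND8 peak there and 2 of 184 a FLAG-ZMYND8 peak, and of those without it 5 and 7 of 56. ZNF genes of other chromosomes had 4 (1.69%) and 23 (9.75%) of 236.

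The members with a 3′ peak lacked the KRAB pattern for the most part. ZMYND8 peaks were at ZNF383, ZNF524, ZNF865, ZNF580, ZNF581 and ZNF444, and 5 of these 6 had peaks of 151 bp only. ZNF580, with 3 fingers, had the one wide ZMYND8 peak (chr19:56151588-56152477, 890 bp, in an intron), which a FLAG-ZMYND8 peak of 383 bp overlapped. Its second pair of peaks, of 151 and 624 bp, also falls in the last 3 kb of the overlapping gene ZNF581, so these genes share a site. At ZNF524, a gene of 3117 bp, the 3′ window nearly reaches the start, and its peak 624 bp from the start counts at both ends. The FLAG-ZMYND8 peaks were at ZNF580, ZNF581, ZNF575, ZNF524, ZNF526, ZNF296, ZNF525, ZNF586 and ZNF446, with widths from 167 to 624 bp. The ZNF525 peak is also the start peak of ZNF765, 356 bp into that gene. Of the 204 members whose end lay over 3 kb from every start, 3 had a FLAG-ZMYND8 peak there.

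Over the stretch from the first to the last finger, 4 of 239 members had a ZMYND8 peak (ZNF557, ZNF536, ZNF546 and ZNF865) and 4 had a FLAG-ZMYND8 peak (ZNF536, ZNF526, ZNF296 and ZNF541), each 1.67%. Of 224 ZNF genes elsewhere with a finger, 8 (3.57%) and 23 (10.3%) did. The stretches summed to 0.431 Mb in members and 1.73 Mb in ZNF genes elsewhere. These shares are thus over unlike lengths and were not scaled to them. In the 2 members whose 3′ peak was centred in a coding exon and covered finger codons, the deposited interval can be read as coding sequence. The ZNF526 interval (chr19:42730094-42730302, FLAG-ZMYND8, 209 bp) and the ZNF865 interval (chr19:56126808-56126958, ZMYND8, 151 bp) are shown on the plus strand, the strand of both genes, from GRCh37. Capitals mark the codons of the zinc-binding cysteines and histidines, and a codon cut by the edge of the interval shows only the bases inside it.
ZNF526: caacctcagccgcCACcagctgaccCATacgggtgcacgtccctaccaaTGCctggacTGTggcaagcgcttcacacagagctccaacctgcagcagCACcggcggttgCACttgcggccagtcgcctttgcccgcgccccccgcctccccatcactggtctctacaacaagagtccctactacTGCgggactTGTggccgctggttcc
ZNF865: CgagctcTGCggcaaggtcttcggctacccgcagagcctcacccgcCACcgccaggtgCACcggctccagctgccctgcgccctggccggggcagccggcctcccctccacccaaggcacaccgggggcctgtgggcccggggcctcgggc
These 2 intervals held 8 and 3 whole codons of this kind. Neither contained GAGAAACC on either strand, which codes for part of the linker between fingers and was present in the last 3 kb of 135 of the 240 members (56.2%) and of 199 of 1240 other genes (16.0%).

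Inside the genes and away from starts, FLAG-ZMYND8 peaks were sparse in members. There were 58 in 7.65 Mb of summed gene length (7.58 per Mb), against 45.4 per Mb in other chromosome 19 genes and 22.5 per Mb in ZNF genes elsewhere. Of the 58, 41 were in the members without the KRAB pattern (21.1 per Mb) and 20 of those in one gene, ZNF536, which is long and stands apart from the clusters. Members with the KRAB pattern had 2.98 per Mb. ZMYND8 peaks numbered 30 in members (3.92 per Mb) against 7.23 per Mb in other genes of the chromosome. In ZNF genes elsewhere the ZMYND8 density was 4.55 per Mb, near that of the members. Counting all peaks in the gene, starts included, ZNF536 had 23 FLAG-ZMYND8 peaks, ZNF787 had 8, ZNF574 and ZNF581 had 5 each, and ZNF580 had 4.

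What else differed between starts of each kind was read from the genome. The median CpG count within 500 bp of the start was 69.5 for members with both peaks, 61 with ZMYND8 only, 60 with FLAG-ZMYND8 only and 51 with neither. The KRAB pattern was present in 57.1%, 79.1%, 66.0% and 84.4% of these kinds. All members and the other chromosome 19 genes had the same median CpG count, 56, and ZNF genes elsewhere had 67. In 3 bins of CpG count set over both classes of the chromosome, ZMYND8 starts made up 20%, 22.5% and 56.6% of members from low to high and 8.88%, 32.0% and 42.2% of the other genes. FLAG-ZMYND8 starts made up 17.8%, 26.8% and 54.7% of members and 32.1%, 59.2% and 78.6% of the other genes. The members' share was lower at each CpG level, but in the low bin it rested on 8 of 45 genes. The intervals there overlap, 9.29 to 31.3% and 27.9 to 36.6%. In the same bins ZNF genes elsewhere had 21.6%, 38.4% and 56.6% for ZMYND8 and 32.4%, 60.5% and 77.9% for FLAG-ZMYND8. The share lacking FLAG-ZMYND8 among ZMYND8 starts was 77.8%, 68.8% and 46.7% for members and 12.8%, 23.9% and 13.8% for other chromosome 19 genes.

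Reads from near-identical copies can map to several places, and the sources used here do not say how such reads were handled. The share of 31 bp words in the 1 kb on each side of the start that occur once in the genome had a median of 88.8% in members, 91.2% in other chromosome 19 genes and 96.0% in ZNF genes elsewhere. By kind of start the medians were 93.5% with both peaks, 91.1% with ZMYND8 only, 88.1% with FLAG-ZMYND8 only and 86.3% with neither. Where at least 90% of words were unique, peaks within 1 kb were found at 41 of 106 members (38.7%) for ZMYND8 and 33 (31.1%) for FLAG-ZMYND8, against 25.8% and 51.8% of other chromosome 19 genes. Where fewer were unique, the shares were 19.4% and 26.1% for members and 15.0% and 31.2% for the others. ZNF genes elsewhere had 43.0% for ZMYND8 and 62.0% for FLAG-ZMYND8 where at least 90% were unique. Where fewer were unique they had 26.9% and 51.3%. The part of mapping in the shares was not tested. The last 3 kb were less unique in members (median 84.5%) than in other genes (87.4%).

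Some members start close to another gene. Of the 43 members with another protein-coding start within 1 kb, 19 (44.2%) were marked in the ZMYND8 list and 19 in the FLAG-ZMYND8 list, and of the 197 others 52 (26.4%) and 56 (28.4%). The differences were 17.8 points (interval 2.55 to 33.5) and 15.8 points (interval 0.477 to 31.6), but in such pairs a peak cannot be assigned to one of the genes, and where both are members it counts for both.

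The promoters, from 250 bp before to 20 bp after the start, were searched on both strands for 6 motifs, none of which contains another. CCGGAAGT, a core bound by ETS factors, was present in 39 members (16.2%), 29 ZNF genes elsewhere (12.3%), 59 other chromosome 19 genes (4.76%) and 4.56% of all protein-coding promoters. It was in 4 of 28 starts with both peaks, 9 of 43 with ZMYND8 only, 10 of 47 with FLAG-ZMYND8 only and 16 of 122 with neither, and the holders include ZNF180, ZNF264, ZNF274 and ZNF671. TATAAA was in 16 members (6.67%), 6.21% of other chromosome 19 genes, 8.47% of ZNF genes elsewhere and 10.5% of all promoters. By kind it was in 1 of 28 starts with both peaks, 7 of 43 with ZMYND8 only, 2 of 47 with FLAG-ZMYND8 only and 6 of 122 with neither. TGACGTCA, the cyclic AMP response element, GCATGCGC, bound by NRF1, ATGGCGGC, bound by YY1, and TCGCGAGA were in 6, 10, 5 and 3 members, beside 2.25%, 3.54%, 1.65% and 1.40% of all promoters. These are matches of letters in a window and show no binding.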

How the data were processed

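Per the labels, replicates of each ChIP were sequenced, and the authors deposited 1 list of peaks for each target. The submitters' processing notes name BWA 0.7 and HOMER; the peak-calling settings and the way replicates were combined are not given in the sources used here. The lists have 6 columns of hg19 positions, and the deposited score column holds 1 in every row, so it ranks nothing. Column values other than score are positions, names and strands.

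Genes came from GENCODE release 44 on GRCh37, on the assembled chromosomes, with the 5′ end of the gene as its start. Peaks were placed by midpoint, within 3 kb or 1 kb of the start or in the last 3 kb of the gene. Shares have 95% Wilson intervals and differences Newcombe intervals. With 1 list per target no test against replicates could be made, and no p-value is given. Proteins were translated from the annotated canonical transcript where it codes, and otherwise from the longest coding transcript. Word uniqueness was counted over the genome with 31 bp words. Placement was tested on simulated peaks planted at known genes.

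The members and lists were chosen with earlier results of these data known. Genes were named by a rule: 10 fixed names, the 10 starts with both peaks and the widest ZMYND8 peak, the 5 widest of each single kind, members with a 3′ peak, and the 5 with most FLAG-ZMYND8 peaks, ties by position. Others named were chosen after their values were seen. The share of ZMYND8 starts lacking FLAG-ZMYND8 and its alternatives, the CpG weighting and the comparison with ZNF genes elsewhere were added after the data were seen. Alternatives were other windows, overlap in place of midpoints, wider peaks, transcript starts, shared starts counted once, isolated 3′ ends, weighting by 5 Mb window or CpG, ZNF genes elsewhere for comparison, and the widest FLAG-ZMYND8 peaks only. Python 3.11.15, numpy 2.4.6, pandas 2.3.3, pysam 0.24.0, numba 0.67.0 and matplotlib 3.10.9 were used.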

Additional observations from a re-analysis of the deposited data

How the results depend on the processing

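No paired analysis was possible because each target has 1 list that names no replicate, and none could be omitted in turn. Of 73 alternative values, 49 stayed within the interval of the value reported and 3 of 42 differences changed sign. Peak heights and read depth are unknown, and the lists hold only sites past a threshold.

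The lower FLAG-ZMYND8 share of members at starts and 3′ ends, and the larger share of their ZMYND8 starts lacking FLAG-ZMYND8, kept their direction under each alternative run. The ZMYND8 difference at starts, 2.08 points, was 8.01 with other genes weighted by 5 Mb window and 7.93 within 500 bp, and turned to -0.339 points with other genes weighted by CpG bin and to -14.9 against ZNF genes of other chromosomes, both chosen after seeing the data, and the ZMYND8 difference at 3′ ends turned to 0.255 in the last exon.

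Within 500 bp of the start the members' shares were 23.3% for ZMYND8 and 23.3% for FLAG-ZMYND8, the FLAG-ZMYND8 difference was -6.59 points, and the difference in the share lacking FLAG-ZMYND8 was 25.7. Within 1 kb the FLAG-ZMYND8 difference was -14.2. With peaks wider than the minimum the members' shares at starts were 15.4% and 17.9%, their ZMYND8 share at 3′ ends 0.417%, and the FLAG-ZMYND8 difference there -10.2 points. Weighting by 5 Mb window gave FLAG-ZMYND8 differences of -16.3 at starts and -14.0 at 3′ ends, and ZNF genes elsewhere gave -33.2 at starts. With the widest FLAG-ZMYND8 peaks, as many as the ZMYND8 list has plus ties, the members' shares were 10.4% and 1.25% and the differences -16.4 and -5.44. In the last 1 kb the members' shares were 0.833% for ZMYND8 and 1.25% for FLAG-ZMYND8, with a FLAG-ZMYND8 difference of -10.1, and in the last exon the latter values were 1.25% and -11.6. At 3′ ends over 3 kb from every start the FLAG-ZMYND8 share was 1.47%. The causes were not tested.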
